A study of Homo sapiens with 9 samples.

Results

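The genes described here encode nuclear subunits of the oxidative phosphorylation complexes. They were chosen by symbol, from probe sets with a single annotation symbol. For complex I the symbol is NDUFA, NDUFB, NDUFC, NDUFS or NDUFV followed by a number. For complex II it is SDHA to SDHD, and for complex III it begins UQCR. Complex IV symbols are COX4 to COX8 followed by A, B or C, which leaves out COX4I1 and COX4I2. Symbols that begin ATP5 stand for ATP synthase, or complex V. Where a gene had several probe sets, the brightest over the 9 arrays stood for it, which gave 74 members of 19775 named genes. Of these, 32 belonged to complex I, 3 to complex II, 6 to complex III, 14 to complex IV and 19 to ATP synthase, and 1 (ATP5MC2P1) is annotated as a pseudogene.

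The respiratory chain lies in the inner mitochondrial membrane. Complexes I and II pass electrons from NADH and succinate to ubiquinone, complex III passes them to cytochrome c, and complex IV passes them to oxygen, while complexes I, III and IV move protons out of the matrix. ATP synthase lets the protons back in and makes ATP. Most subunits are encoded in the nucleus, and the factors NRF1, GABPA (an ETS protein), YY1 and the estrogen-related receptors are known to bind many of their promoters.

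Gene expression was measured in LNCaP cells, an established androgen-responsive line from a human prostate cancer metastasis, on Affymetrix U133 Plus 2.0 arrays with 1 array for each of 9 groups. In the inhibitor series the cells were not transfected. Steady-state cells grew in 10% fetal bovine serum, and vehicle cells were kept for 48 h in 5% charcoal-stripped serum to remove androgen. The DHT group was then given 100 nM dihydrotestosterone, a potent androgen, for 16 h. The etoposide and merbarone groups received 100 µM of the compound, added 2 h ahead of DHT. Both act on topoisomerase II: etoposide holds the enzyme on DNA it has cut, whereas merbarone inhibits it without holding it there. In the shRNA series, cells carried a green fluorescent protein vector that also encoded sh-control or an shRNA against TOP2B, the gene of topoisomerase II beta. These cells were deprived of androgen in the same way, given vehicle or 100 nM DHT for 16 h, and sorted for fluorescence. Apart from steady state, all groups therefore share the deprivation, and the 4 sorted groups share transfection and sorting. Steady state differs from vehicle in serum type and amount as well as in androgen, and these cannot be told apart.

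Values are log2 levels as deposited, and each difference is a log2 difference between arrays, given ± the standard error (SE) of the limma fit. Because each group had 1 array, the only repeated measurement was DHT against vehicle in 3 backgrounds. The spread is how far those 3 DHT effects differ, and lone arrays are assumed to vary like them. The labels do not describe separate cultures within a group, and the p-values reflect only the spread between these samples, which may be technical. A gene passed the test when its limma p, adjusted by Benjamini-Hochberg over the 11865 genes kept by a filter on low levels, was under 0.05. Dim means below the array's own median, which lay between 5.61 and 5.72.

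As for the arrays themselves, the 3' minus 5' difference of the beta-actin control probe sets was 0.38 to 0.70 on the 5 inhibitor-series arrays and 2.38 to 3.09 on the 4 shRNA-series arrays. Of 8 luminal prostate markers measured, 6 were dim on none of the arrays and 0 were dim on all of them. Of 18 markers of stroma, leukocytes, endothelium, basal, neuroendocrine and muscle cells, 11 were dim on all 9 arrays, among them PTPRC, CDH5, DCN and CHGA. COL1A1 and VWF were dim on none. TOP2B read 10.54 and 10.87 in sh-control cells with vehicle and DHT, and 10.09 and 10.01 in sh-TOP2B cells. Its difference of -0.66 ± 0.12 did not pass limma's test (adjusted p = 0.0934), and these arrays are named by their labels. TOP2A, the gene of topoisomerase II alpha, read 10.42 in steady state and 8.82 to 9.17 in sorted cells. It was dim with vehicle (4.42), DHT (4.50), etoposide (2.45) and merbarone (3.44). What goes with this difference between the arrays was not tested.

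Of the 74 members, 70 passed the filter on low levels and were tested. COX6A2 and COX7A1, the heart and skeletal muscle forms of complex IV subunits, were dim on all 9 arrays, with levels of 4.98 to 5.59 and 4.55 to 5.10. COX8C, a testis form, was dim on all as well, at 2.72 to 3.14. Of the 4 muscle markers, ACTA1, MYH7 and CKM were also dim on all arrays, while DES was dim on 2 and read 5.38 to 6.26. The probe set of ATP5MF, which encodes subunit f of ATP synthase, had a mean of 5.76 and was left out. COX6B2 and COX7B2, further tissue-restricted forms, were kept: COX6B2, a testis form, read 5.67 to 6.32, close to the array medians, while COX7B2 read 9.12 to 11.44. All 70 tested members were above the array's median on every array. The median level over the 70 members was 12.44 in steady state, 12.03 with vehicle, 12.01 with DHT, 11.94 with etoposide and 12.06 with merbarone. In sorted cells it was 12.47 and 12.33 for sh-control with vehicle and DHT, and 12.44 and 12.39 for sh-TOP2B. Steady state was thus the highest array of the inhibitor series, and the sorted arrays lay near it. In bulk samples, fewer cells and less RNA per cell cannot be told apart.

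RefSeq promoter windows (GRCh38.p14, 250 bases before to 50 after the gene's start) matched 63 of the 74 members. The NRF1 motif, read as GCGCA, any base and GCGC, or on the other strand GCGC, any base and TGCGC, was found in 16 of them (25.4%), against 6.28% of all 27305 promoters in the table. The ETS motif, CCGGAAG or CTTCCGG, was found in 17 (27.0%, against 10.7%), and the YY1 motif, AANATGGCG or CGCCATNTT, in 13 (20.6%, against 3.37%). TCAAGGTCA or TGACCTTGA, the motif of the estrogen-related receptors, was found in 1 (1.59%, against 0.359%). Both strands are covered by the pair of spellings in each case, and motifs were counted whether or not they overlapped. At least 1 of the first 3 motifs stood in 36 promoters (57.1%, against 17.9%) and at least 2 of them in 10 (15.9%, against 2.27%). The background promoters were not matched on base composition, and a match is a run of letters, not a measured site.

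The 250 bases before the start are shown for 7 members, read 5′ to 3′ along the gene, with the matched letters in capitals. NDUFA12 (chr12:95003698-95003947, minus strand), SDHD (chr11:112086623-112086872, plus), UQCRC1 (chr3:48609647-48609896, minus) and COX6B1 (chr19:35648073-35648322, plus) are the members of complexes I to IV with the lowest adjusted p, among members with a promoter in the table, in the comparison that called most members; SDHC, lower than SDHD in that p, had none. NDUFS3 (chr11:47578824-47579073, plus) and ATP5ME (chr4:674277-674526, minus) rose in steady state and hold the same kind of motif more than once in the window. ATP5MC1 (chr17:48892537-48892786, plus) fell with both inhibitors and holds none of the 4 motifs in these letters. NDUFS3, ATP5ME and ATP5MC1 were chosen after their values were seen. For ATP synthase, the rule of the lowest adjusted p gave ATP5F1E, which is not shown. It holds none of the 4 motifs in its window.
NDUFA12: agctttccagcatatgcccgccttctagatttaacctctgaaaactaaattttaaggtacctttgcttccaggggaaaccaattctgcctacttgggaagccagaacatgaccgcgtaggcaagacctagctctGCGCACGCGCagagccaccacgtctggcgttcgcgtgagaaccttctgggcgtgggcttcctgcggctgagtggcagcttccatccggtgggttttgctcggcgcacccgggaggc
NDUFS3: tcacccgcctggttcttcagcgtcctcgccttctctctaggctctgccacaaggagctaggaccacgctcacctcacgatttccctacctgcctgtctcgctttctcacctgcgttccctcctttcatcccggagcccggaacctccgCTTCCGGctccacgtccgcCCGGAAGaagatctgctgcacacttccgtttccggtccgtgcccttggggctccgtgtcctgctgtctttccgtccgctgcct
SDHD: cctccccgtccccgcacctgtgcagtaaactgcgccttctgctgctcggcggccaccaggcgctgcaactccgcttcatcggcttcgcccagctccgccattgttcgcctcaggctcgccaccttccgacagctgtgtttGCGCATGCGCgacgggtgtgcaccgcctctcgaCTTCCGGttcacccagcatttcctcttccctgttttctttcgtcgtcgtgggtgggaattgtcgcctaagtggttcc
UQCRC1: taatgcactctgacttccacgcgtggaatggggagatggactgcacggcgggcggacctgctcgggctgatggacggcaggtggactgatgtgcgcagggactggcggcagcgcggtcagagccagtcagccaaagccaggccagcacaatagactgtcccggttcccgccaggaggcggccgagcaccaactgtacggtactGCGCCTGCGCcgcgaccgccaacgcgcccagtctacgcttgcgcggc
COX6B1: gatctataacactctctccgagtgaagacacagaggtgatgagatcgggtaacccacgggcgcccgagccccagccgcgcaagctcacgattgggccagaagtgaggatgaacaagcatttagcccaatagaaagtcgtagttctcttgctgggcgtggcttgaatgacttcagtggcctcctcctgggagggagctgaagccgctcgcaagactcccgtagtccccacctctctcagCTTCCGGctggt
ATP5ME: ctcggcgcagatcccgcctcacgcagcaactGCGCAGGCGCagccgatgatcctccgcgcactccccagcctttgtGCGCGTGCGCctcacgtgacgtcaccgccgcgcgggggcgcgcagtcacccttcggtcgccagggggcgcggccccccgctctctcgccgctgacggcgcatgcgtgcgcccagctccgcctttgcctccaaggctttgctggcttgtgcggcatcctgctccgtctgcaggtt
ATP5MC1: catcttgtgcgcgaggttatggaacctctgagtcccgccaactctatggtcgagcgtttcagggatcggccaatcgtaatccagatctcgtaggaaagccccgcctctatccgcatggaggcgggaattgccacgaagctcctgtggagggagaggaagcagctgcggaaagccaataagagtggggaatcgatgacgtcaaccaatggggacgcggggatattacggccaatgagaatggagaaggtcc

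Serum-grown cells had higher levels of many members than androgen-deprived cells, in complexes I, III and IV and in ATP synthase. Of 70 members, 29 rose and 1 fell in steady state against vehicle (limma, adjusted p under 0.05). Among all genes tested, 28.1% passed, 15.7% higher and 12.4% lower, so the members' share of rises was 41.4% and their share of falls 1.43%. The median difference over the members was 0.29, against 0.04 over all genes kept, and 65 of 70 members were above 0. The members are bright, and their median SE was 0.098, against 0.196 over all genes kept, so a smaller difference passes for them.

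By complex, 12 of 32 members of complex I rose and 1 fell, with a median difference of 0.31. In complex II, 0 of 3 passed and the median was 0.06. In complex III, 3 of 6 rose, with a median of 0.30. In complex IV, 4 of 11 rose, with a median of 0.21, and in ATP synthase 10 of 18 rose, with a median of 0.31.

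**Figure D1:**
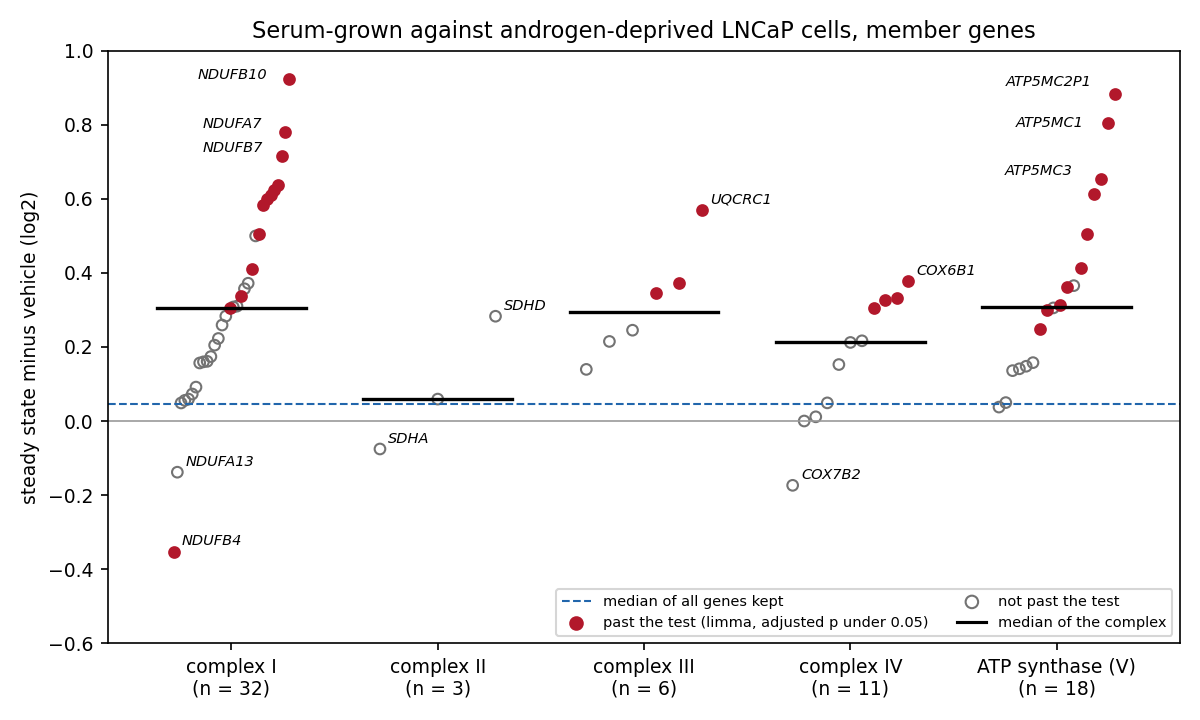
Log2 difference between the steady-state and the vehicle array for the 70 members tested, by complex (x axis); each point is 1 gene, filled where it passed limma's test, and black bars are the medians of the complexes. All 18 members of ATP synthase lie above 0, complex II has no filled point, and NDUFB4 is the only filled point below 0.

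In complex I the largest rise was that of NDUFB10, an accessory subunit of the membrane arm. It read 12.63 in steady state, 11.71 with vehicle, 11.79 with DHT, 11.47 with etoposide and 12.07 with merbarone, and between 12.25 and 12.38 in the 4 sorted groups. Steady state was the highest of all 9 arrays and etoposide the lowest. The difference from vehicle was 0.92 ± 0.09 (limma, adjusted p = 0.000655).

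Among the other rises, NDUFA7, an accessory subunit of the matrix arm, rose by 0.78 ± 0.14, but its second probe set read a difference of 0.00. NDUFB7 rose by 0.71 ± 0.13. Its other probe set read a difference of 0.09 against vehicle and -0.19 against the DHT array. NDUFS1, the large core subunit that carries iron-sulfur clusters, read 10.95 in steady state and 10.33 with vehicle and rose by 0.62 ± 0.13 (limma, adjusted p = 0.0129). The core subunit NDUFS3 rose by 0.60 ± 0.13 and NDUFS4, an accessory subunit of the NADH-binding module, by 0.58 ± 0.14. NDUFV3 rose by 0.64 ± 0.17 and NDUFB8 by 0.61 ± 0.16. These rises therefore lay in both the membrane arm and the matrix arm of complex I.

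NDUFB4, a membrane-arm accessory subunit, went the other way. It read 13.56 in steady state against 13.91 with vehicle, 13.89 with DHT, 13.87 with etoposide and 13.68 with merbarone. Steady state was the lowest array of the inhibitor series, and the sorted arrays, at 13.50 to 13.61, lay around it. The difference was -0.35 ± 0.06 (limma, adjusted p = 0.0055), the only fall among the members.

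In complex II, SDHD, a membrane anchor, read 0.28 ± 0.11 higher and SDHA, the flavoprotein that oxidizes succinate, read -0.08 ± 0.11, and neither passed. SDHA was also the flattest of the 3 across the study, between 11.24 and 11.38 on the 9 arrays. In complex III the largest rise was that of UQCRC1, core protein 1, by 0.57 ± 0.14 (11.78 against 11.21). UQCRB and UQCRQ, small subunits of the complex, rose by 0.37 ± 0.08 and 0.35 ± 0.08. In complex IV, COX6B1, which faces the intermembrane space, rose by 0.38 ± 0.07, COX8A by 0.33 ± 0.09, COX5A by 0.33 ± 0.07 and COX5B by 0.30 ± 0.09. COX7B2 read -0.17 ± 0.13 and did not pass.

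In ATP synthase, subunit c forms the ring that turns in the membrane, and ATP5MC1, ATP5MC2 and ATP5MC3 encode the same mature protein behind different import sequences. ATP5MC1 read 11.14 in steady state, 10.34 with vehicle, 10.36 with DHT, 9.53 with etoposide and 9.67 with merbarone, and 11.52 to 11.55 in sorted cells. Steady state lay between the other arrays of its series and the sorted arrays. The difference from vehicle was 0.81 ± 0.11 (limma, adjusted p = 0.00295). ATP5MC3 read 12.52 in steady state and 11.87 with vehicle and rose by 0.65 ± 0.08 (limma, adjusted p = 0.00221). ATP5MC2 read 12.60 and 12.29 and rose by 0.31 ± 0.09. Its other probe set is dim, and the median over both gave -0.06. The pseudogene ATP5MC2P1, whose probes can pick up ATP5MC2 transcripts, read 7.16 against 6.28 and rose by 0.88 ± 0.26.

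**Figure D2:**
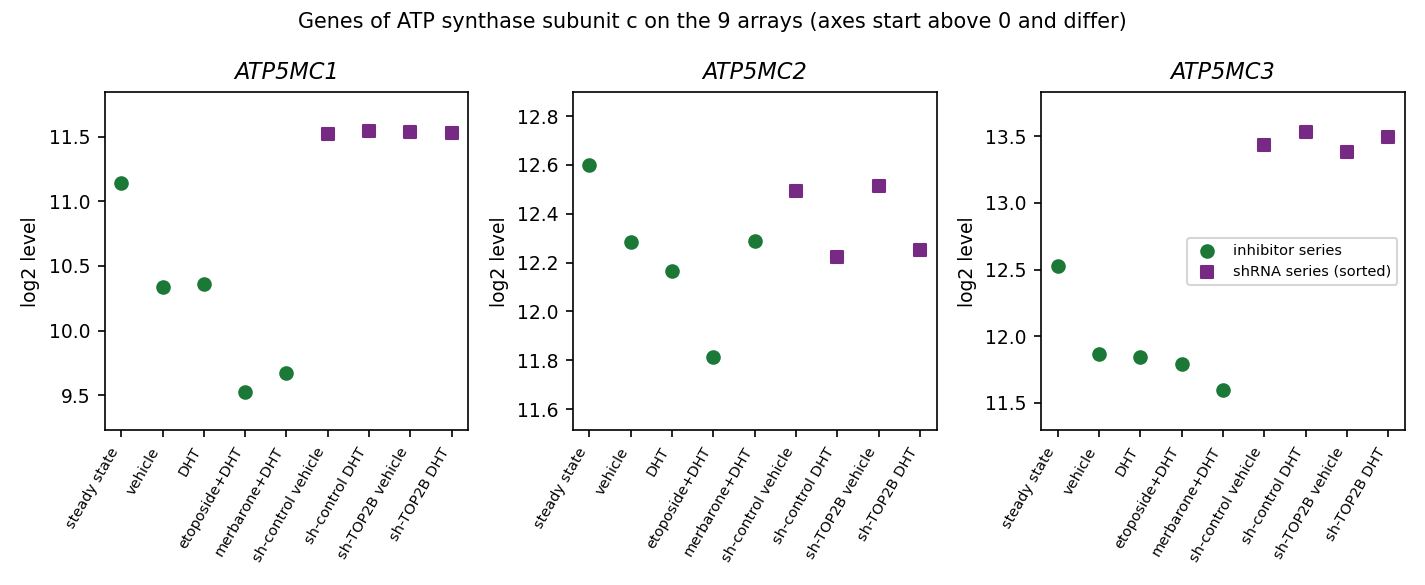
Log2 level of the 3 genes of ATP synthase subunit c on the 9 arrays (x axis), circles for the inhibitor series and squares for the sorted cells; each panel has its own axis, and levels are not compared between genes. ATP5MC1 is lowest with etoposide (9.53) and merbarone (9.67), while ATP5MC3 is lowest with merbarone (11.59) and ATP5MC2 with etoposide (11.81).

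Other rises in ATP synthase were those of ATP5ME, subunit e, by 0.61 ± 0.10, and of ATP5PF, coupling factor 6 of the peripheral stalk, by 0.51 ± 0.09. The catalytic subunit beta, ATP5F1B, rose by 0.30 ± 0.07. ATP5IF1, the inhibitor protein, read 0.04 ± 0.14 and did not pass. Against the DHT array, 27 members rose in steady state and 1 (NDUFB4) fell, beside 24.8% of all genes passing, 13.5% higher and 11.4% lower. Past the test, 24 members were higher in steady state than with vehicle and than with DHT; both comparisons use the same steady-state array. NDUFB10 was 0.84 ± 0.09 higher than with DHT and ATP5MC1 0.79 ± 0.11.

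Of the 30 members past the test against vehicle, 17 had more than 1 bright probe set, and in 16 of these all bright probe sets had the same sign; NDUFA7 was the exception. The call count rested on the spread that the pairs gave. It was 19 without the sh-control pair, where 25.7% of members and 11.5% of all genes rose, and 10 without the sh-TOP2B pair, where 12.9% and 9.99% rose. In a limma fit with no trend of the spread on level it was 8, and the share that rose was 11.4% of members and 11.4% of all genes, so the members' share was the background's there. Falls numbered at most 1 under each of these settings. Centred on 11 control genes, which moves the median of all genes from 0.04 to 0.29, 56 members (80.0%) rose and 0 fell, beside 27.2% and 8.12% of all genes.

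Motifs can be set beside these calls as counts. The ETS motif stood in 10 of the 25 risen members with a promoter and in 7 of the 36 other tested members with one. The YY1 motif stood in 8 and 5 of them, and the NRF1 motif in 6 and 9. These shares were not tested.

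Other genes of the pathway gave the following counts in the same comparison. Among subunits outside the symbol rule and electron carriers, 4 of 8 rose and 0 fell, led by ETFB, which feeds electrons from fatty acid oxidation, by 1.00 ± 0.15, and CYC1, cytochrome c1 of complex III, by 0.87 ± 0.16. Of 50 assembly factors, 14 rose and 1 fell, led by LYRM7 (1.36 ± 0.17), which serves complex III, and SDHAF3 (1.07 ± 0.17), which serves complex II. Of 21 regulators of mitochondrial genes, 6 rose and 0 fell, led by the coactivator PPRC1 (1.18 ± 0.18) and the mitochondrial helicase TWNK (1.17 ± 0.24).

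Of 15 genes of the citrate cycle and pyruvate dehydrogenase, 6 rose and 0 fell, led by DLAT (1.01 ± 0.13) and PDHA1 (0.87 ± 0.12), both of pyruvate dehydrogenase. Of 75 mitochondrial ribosomal protein genes, 45 rose and 0 fell, with a median difference of 0.58, led by MRPL11 (1.44 ± 0.16) and MRPL19 (1.24 ± 0.16). Of 57 cytosolic ribosomal protein genes, 27 rose and 0 fell, with a median of 0.17. RPLP2 (1.18 ± 0.18) and RPL10L (0.98 ± 0.21) led it. These 6 lists each held more rises than falls, and the medians of the mitochondrial ribosome and of the cytosolic ribosome lay on either side of the members' 0.29.

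DHT against vehicle gave 0 calls among the 70 members in the limma fit over the 3 pairs, beside 0.447% of all genes, 0.421% higher and 0.0253% lower. At an unadjusted p under 0.05 there were 11 members and 2288 genes. The median difference was 0.00 in the inhibitor series, -0.10 in sh-control cells and -0.06 in sh-TOP2B cells. Members pointed down more often than up. In all 3 pairs 24 members (34.3%) were lower and 3 (4.29%) higher with DHT, against 21.9% and 18.0% of all genes kept.

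The largest differences over the 3 pairs were those of NDUFA9 (-0.32 ± 0.09) and ATP5IF1 (-0.32 ± 0.08), and NDUFB5 read 0.22 ± 0.12; none passed. By complex, the median over the members of complex I was -0.0021 in the inhibitor series, -0.18 in sh-control and -0.11 in sh-TOP2B cells. That of complex II was -0.0037, -0.01 and 0.10 in the same order.

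The count depended on the inhibitor pair. With the 2 sorted pairs alone, 21 members passed, 3 higher and 18 lower (limma), beside 21.2% of all genes, 9.31% higher and 11.9% lower. The members' shares were 4.29% and 25.7%. The actin 3' minus 5' difference also went down with DHT in both sorted pairs, from 3.09 to 2.67 and from 2.69 to 2.38, against 0.47 and 0.46 in the untransfected pair, and its part in the result was not tested. Of the falls, 12 belonged to complex I, 1 to complex III and 5 to ATP synthase. NDUFA9, a complex I accessory subunit, went from 11.72 to 11.29 in sh-control cells and from 11.76 to 11.30 in sh-TOP2B cells, against 10.90 and 10.81 in the inhibitor series. Both sorted pairs fell by nearly the same amount, and the untransfected pair moved little. Over the sorted pairs its difference was -0.44 ± 0.07 (limma, adjusted p = 0.000581).

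The next largest falls in the sorted pairs were those of ATP5IF1, the ATP synthase inhibitor (-0.37 ± 0.08), NDUFV2 and NDUFV1, core subunits at the NADH-oxidizing end of complex I (-0.35 ± 0.06 and -0.32 ± 0.07), NDUFA10 (-0.32 ± 0.09) and NDUFA7 (-0.29 ± 0.07). The 3 rises were those of NDUFB5 (0.38 ± 0.09), NDUFC1 (0.22 ± 0.05) and COX6A1 (0.18 ± 0.05). All 21 rest on 2 pairs, and 0 members passed when the inhibitor pair was kept in. The difference in DHT response between the sorted and the untransfected pairs was tested directly. It gave 0 members past limma's threshold, beside 2.98% of all genes (1.51% higher and 1.47% lower), and 13 members (18.6%) at an unadjusted p under 0.05, beside 1793 genes (15.1%). The largest were NDUFB5 at 0.48 ± 0.15 (adjusted p = 0.154) and NDUFB8 at -0.41 ± 0.11 (adjusted p = 0.0958). Of the other lists of the pathway, 1 gene passed for DHT over the 3 pairs, MRPS18A of the mitochondrial ribosome, which rose by 0.77 ± 0.10.

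**Figure D3:**
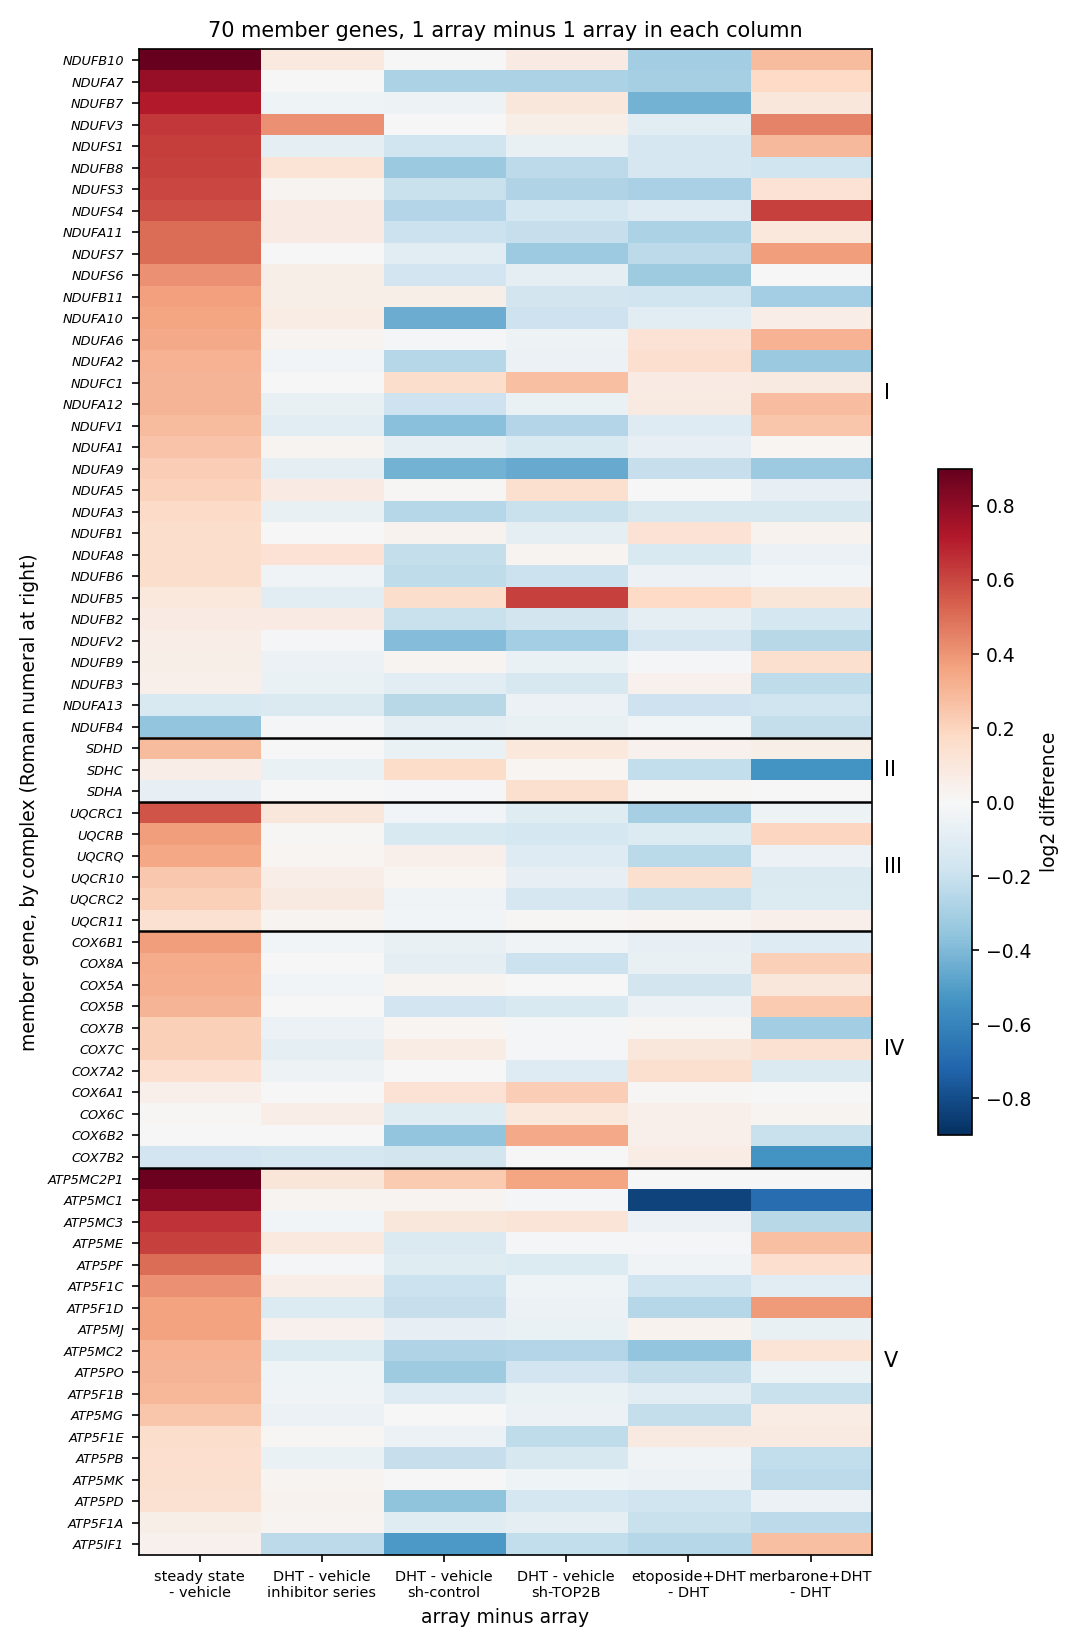
Log2 difference between single arrays for the 70 members (y axis, grouped by complex and ordered by the first column), for 6 pairs of arrays (x axis); red is higher and blue lower, on a scale that saturates at the ends of the colour bar. The steady-state column is mostly red (65 of 70 above 0), the DHT column of the inhibitor series is pale, both sorted DHT columns lean blue, and ATP5MC1 is the darkest blue cell with etoposide.

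Etoposide with DHT against DHT alone gave 1 call among the 70 members, a fall of ATP5MC1 (limma). The background was 1.05% of all genes, 0.834% lower. The median difference was -0.09 over the members and -0.06 over all genes kept, and 8 members (11.4%) had an unadjusted p under 0.05, as did 1732 genes (14.6%). ATP5MC1 went from 10.36 with DHT to 9.53, the lowest of the 9 arrays, a difference of -0.83 ± 0.11 (limma, adjusted p = 0.0344). The call was lost with no intensity trend, with no filter, after a further quantile normalization, when centred on abundant genes, and without either sorted pair; the difference was -0.73 after normalization and -0.77 on abundant genes.

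No other member passed with etoposide. The lowest values of the other complexes were those of NDUFB7 in complex I at -0.43 ± 0.13 (limma, adjusted p = 0.211), SDHC in complex II at -0.22 ± 0.11, UQCRC1 in complex III at -0.30 ± 0.14 and COX5A in complex IV at -0.17 ± 0.07. The highest were NDUFB5 (0.18 ± 0.21), SDHD (0.04 ± 0.11), UQCR10 (0.14 ± 0.08), COX7A2 (0.15 ± 0.08) and ATP5F1E (0.08 ± 0.09). The medians were -0.12 in complex I, -0.16 in complex III and -0.14 in ATP synthase, and 0.01 in complexes II and IV. Of the other lists, 3 genes passed: the transcription factor gene MYC fell by 1.31 ± 0.13, MRPS27 fell by 0.70 ± 0.09 and RPS27L, a cytosolic ribosomal protein homolog known as a p53 target, rose by 0.68 ± 0.09.

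Merbarone with DHT against DHT alone gave 11 calls among the members, 4 higher and 7 lower. Among all genes 31.7% passed, 15.4% higher and 16.3% lower, so the members' shares (5.71% and 10.0%) were below the background in both directions. The median difference was 0.00 over the members and 0.00 over all genes kept. Complex I had 4 rises and 1 fall, complexes II, IV and V had 1, 2 and 3 falls, and complex III had 0 calls.

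ATP5MC1 fell here too, from 10.36 to 9.67, by 0.68 ± 0.11 on the log2 scale (limma, adjusted p = 0.00536). It was the only member lower past the test with both compounds; both comparisons use the same DHT array. COX7B2 read 9.12 with merbarone against 9.64 to 9.82 on the other 4 arrays of the inhibitor series. It was lowest with merbarone, and its difference from DHT was -0.54 ± 0.13 (limma, adjusted p = 0.0228). SDHC, a membrane anchor of complex II, read 10.36 against 10.68 to 11.02 on the others and fell by 0.54 ± 0.11, and its 7 probe sets lay between -1.12 and -0.28. COX7B fell by 0.31 ± 0.07, ATP5MK by 0.24 ± 0.06, ATP5F1A, the alpha subunit of ATP synthase, by 0.24 ± 0.07 and NDUFB4 by 0.21 ± 0.06.

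The rises were all in complex I. NDUFS4 read 11.23 with merbarone, 10.61 with DHT, 10.54 with vehicle, 10.50 with etoposide and 11.12 in steady state. Merbarone and steady state were both above the other 3 arrays of the series. The difference from DHT was 0.62 ± 0.14 (limma, adjusted p = 0.0163). NDUFA6 rose by 0.32 ± 0.08, NDUFB10 by 0.28 ± 0.09 and NDUFA12 by 0.28 ± 0.09. In the other lists, 4 of 21 regulators rose and 5 fell, NRF1 (2.79 ± 0.19) and MYC (-2.37 ± 0.13) being the largest. NRF1 read 10.01 with merbarone and 7.22 to 8.51 on the other 8 arrays, so the merbarone array was the highest for this regulator. Its relation to the members' values was not tested. Of 50 assembly factors 4 rose and 8 fell (COX18 -2.09 ± 0.14, COA7 1.63 ± 0.23), and of 75 mitochondrial ribosomal protein genes 22 rose and 4 fell (MRPS31 -1.14 ± 0.15, MRPL10 1.02 ± 0.15). Of the citrate cycle list, SUCLG2 rose by 0.51 ± 0.12 and DLAT fell by 0.93 ± 0.13. ETFDH (-0.74 ± 0.19) and NDUFAB1 (-0.29 ± 0.08) fell among the other subunits, and the cytosolic ribosome had 12 rises and 2 falls of 57, led by RPLP2 (0.95 ± 0.18) and RPL10L (0.80 ± 0.21).

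The split of the merbarone calls depended on scaling. Centred on the 11 control genes, which moves the median of all genes from 0.00 to 0.28, 27 members (38.6%) were higher and 1 (1.43%) lower, beside 27.5% and 9.14% of all genes, and ATP5F1A, ATP5MK and NDUFB4 read 0.0495, 0.0481 and 0.0717 in place of their falls. Centred on 1135 abundant genes that are not members, which moves it to 0.10, 11 (15.7%) were higher and 3 (4.29%) lower, beside 18.9% and 13.1%. The count of calls was 1 in the fit with no trend (1.43% of members, beside 24.6% of all genes), 5 without the filter on low levels (6.76%, beside 16.1%), 5 without the sh-control pair (7.14%, beside 24.6%), 2 without the sh-TOP2B pair (2.86%, beside 22.9%) and 17 against the fitted DHT level (24.3%, beside 36.6%).

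The compounds were compared directly at the same dose and time, as 1 pair. Between etoposide and merbarone, both with DHT, 20 of 70 members differed, 6 higher and 14 lower with etoposide (limma). Among all genes 32.6% differed, 13.5% higher and 19.1% lower, so the members' 8.57% and 20.0% lay below and near the background. Complex I had 2 higher and 8 lower, complex III 1 and 1, complex IV 3 and 1, ATP synthase 0 and 4, and complex II 0 calls.

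**Figure D4:**
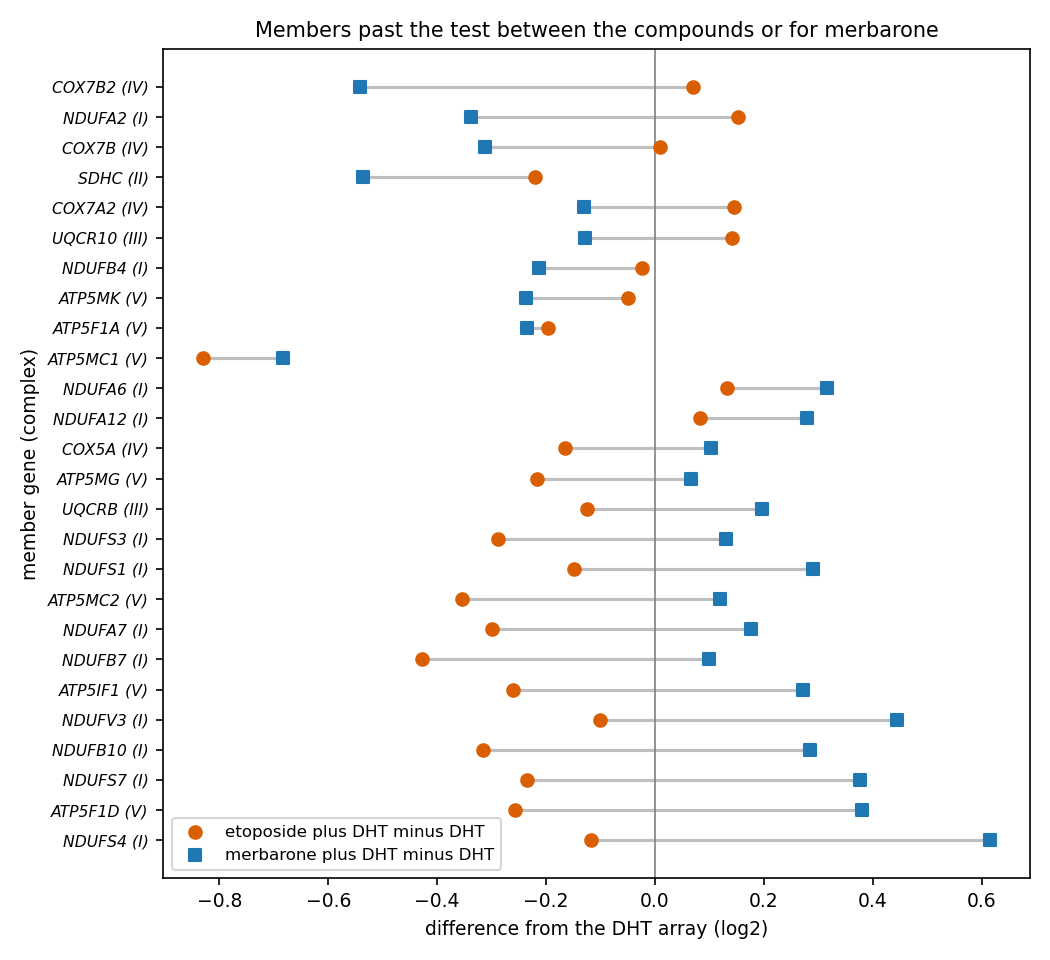
Log2 difference from the DHT array (x axis) with etoposide (circles) and merbarone (squares) for the 26 members that passed limma's test for merbarone or between the compounds (y axis, complex in brackets); 1 array per point. ATP5MC1 lies far to the left with both compounds, and NDUFS4 has the widest gap (-0.73).

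NDUFS4 was 0.73 ± 0.14 lower with etoposide than with merbarone (10.50 against 11.23; limma, adjusted p = 0.00887). ATP5F1D, the delta subunit of the ATP synthase stalk, read 9.90 against 10.54 and was lower by 0.64 ± 0.12. NDUFS7, a core subunit that carries an iron-sulfur cluster, was lower by 0.61 ± 0.18, and NDUFB10 by 0.60 ± 0.09 (limma, adjusted p = 0.0036). NDUFV3 and ATP5IF1 were lower by 0.55 ± 0.17 and 0.53 ± 0.14, but each has another bright probe set with the opposite sign. The 6 members higher with etoposide were COX7B2 (0.61 ± 0.13), NDUFA2 (0.49 ± 0.11), COX7B (0.32 ± 0.07), COX7A2 (0.28 ± 0.08), UQCR10 (0.27 ± 0.08) and NDUFB4 (0.19 ± 0.06). The median over all probe sets of NDUFA2 was -0.20, but its other probe sets had means of 5.84 and 3.96, below the filter level of 5.92. Centred on control genes, COX7A2, UQCR10 and NDUFB4 read -0.0084, -0.0167 and -0.0949. In complex II, SDHC read 0.31 ± 0.11 higher with etoposide and did not pass (adjusted p = 0.0782). ATP5MC1, which fell with both, differed by -0.15 between the compounds with an SE of 0.11.

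Of the 13 members here with several bright probe sets, 8 had a single sign across them; ATP5IF1, ATP5MG, NDUFA7, NDUFV3 and UQCRB did not. Scaling also moved the split, to 0 higher and 38 lower when centred on control genes (median of all genes -0.32), beside 7.43% and 32.2% of all genes. It was 3 and 20 when centred on abundant genes, beside 12.3% and 20.4%, and 8 and 4 after a further quantile normalization, beside 15.3% and 15.2%. In the other lists, 4 mitochondrial ribosomal protein genes were higher and 37 lower with etoposide of 75 (MRPS30 -1.28 ± 0.18, MRPL43 -1.13 ± 0.19), and 3 and 25 of 57 of the cytosolic ribosome (RPL10L -1.27 ± 0.21, RPLP2 -0.66 ± 0.18). Assembly factors had 10 and 7 of 50 (COA7 -1.86 ± 0.23, COX18 1.82 ± 0.14), regulators 2 and 5 of 21 (NRF1 -2.43 ± 0.19, MTERF2 1.74 ± 0.20), the citrate cycle 1 and 3 of 15 (DLAT 1.00 ± 0.13, SUCLG1 -0.69 ± 0.15) and other subunits 1 and 1 of 8 (ETFDH 0.98 ± 0.19, COX7A2L -0.60 ± 0.13). The count of members was 31 without the inhibitor pair (44.3%, beside 44.8% of all genes), 9 without the sh-control pair (12.9%, beside 25.0%) and 5 without the sh-TOP2B pair (7.14%, beside 23.2%).

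TOP2B knockdown gave 0 calls among the 70 members against sh-control over vehicle and DHT (limma), beside 1.05% of all genes, all of them higher. At an unadjusted p under 0.05 there were 832 genes (7.01%) and 1 member (1.43%), COX7C, at -0.13 ± 0.05 (adjusted p = 0.618). The median difference was -0.02 with vehicle and 0.01 with DHT. In both conditions 16 members (22.9%) were higher and 21 (30.0%) lower with the knockdown, against 22.9% and 33.9% of all genes kept. The change of the DHT response by the knockdown also gave 0 calls among the members, and 0 of 11865 genes, with 1 member and 205 genes at an unadjusted p under 0.05. That member was NDUFB5, a membrane-arm subunit. It read 12.57 with vehicle and 12.73 with DHT in sh-control cells, and 11.77 and 11.68 in untransfected cells. With sh-TOP2B it read 12.07 and 12.69. The sh-TOP2B vehicle array was the lowest of the 4 sorted arrays. The DHT difference in sh-TOP2B cells, 0.61, exceeded the mean of the differences in the other 2 backgrounds (0.15 in sh-control and -0.09 in untransfected cells) by 0.58 ± 0.16 (limma, adjusted p = 1.00).

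The sorted sh-control cells and the untransfected cells differed in most members. Of 70 members, 41 were higher and 8 lower in sh-control cells over vehicle and DHT (limma), beside 68.3% of all genes, 41.7% higher and 26.6% lower. The members' 58.6% and 11.4% therefore sit on a background in which most genes differ. The median difference was 0.38 over the members and 0.18 over all genes kept. Transfection, sorting, the array series and the actin 3' minus 5' difference, which was 2.38 to 3.09 here against 0.38 to 0.70, go together and cannot be told apart. The summed linear level of the 5 stroma markers was 373 to 492 in the inhibitor series and 720.1 to 888 in sorted cells; 4 of the 5 were dim on all arrays, and the other was COL1A1, at 8.05 to 8.63 and 9.26 to 9.63. The sums of 3 endothelial markers (258 to 346 and 108 to 203) and 2 leukocyte markers (70.4 to 89.8 and 41.1 to 57.9) were lower in sorted cells. The part of these markers in the result was not tested.

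The extremes were large. UQCRC1 read 11.02 to 11.78 on the 5 arrays of the inhibitor series and 8.41 to 8.55 on the 4 sorted arrays. The groups did not overlap, and the difference was -2.84 ± 0.10 (limma, adjusted p = 4.38e-06). UQCRB, a small subunit of the same complex, read 12.22 to 12.70 and 13.35 to 13.52, a difference of 1.12 ± 0.06 the other way. NDUFS7 was lower by 1.40 ± 0.12. The choice without shared probe sets gave 0.0856, from a probe set with a mean of 5.79, below the filter level of 5.92. NDUFA3 was lower by 0.90 ± 0.08, COX6A1 by 0.63 ± 0.06, NDUFA13 by 0.50 ± 0.07 and COX7A2 by 0.36 ± 0.05. NDUFB4 was lower by 0.33 ± 0.04, with its other probe set at 0.44. Subunits of a single complex differed in both directions in complexes I to IV.

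Among the members higher in sorted cells, ATP5MC3 read 11.59 to 12.52 in the inhibitor series and 13.38 to 13.53 in sorted cells, with a difference of 1.62 ± 0.06. COX7B2 read 9.12 to 9.82 and 11.28 to 11.44, a difference of 1.62 ± 0.09. SDHC was higher by 1.49 ± 0.08. Its 7 bright probe sets ranged from -0.43 to 2.13, with a median difference of 1.07. Taking the median level of its probe sets on each array before the comparison gave -0.16. ATP5F1E, the epsilon subunit, was higher by 1.35 ± 0.06, NDUFS4 by 1.34 ± 0.10 and ATP5MC1 by 1.19 ± 0.08. In complex II, SDHD was lower by 0.21 ± 0.07. ATP synthase had 12 higher and 0 lower of 18, complex I 17 and 4 of 32, complex III 4 and 1 of 6, complex IV 7 and 2 of 11, and complex II 1 and 1 of 3.

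**Figure D5:**
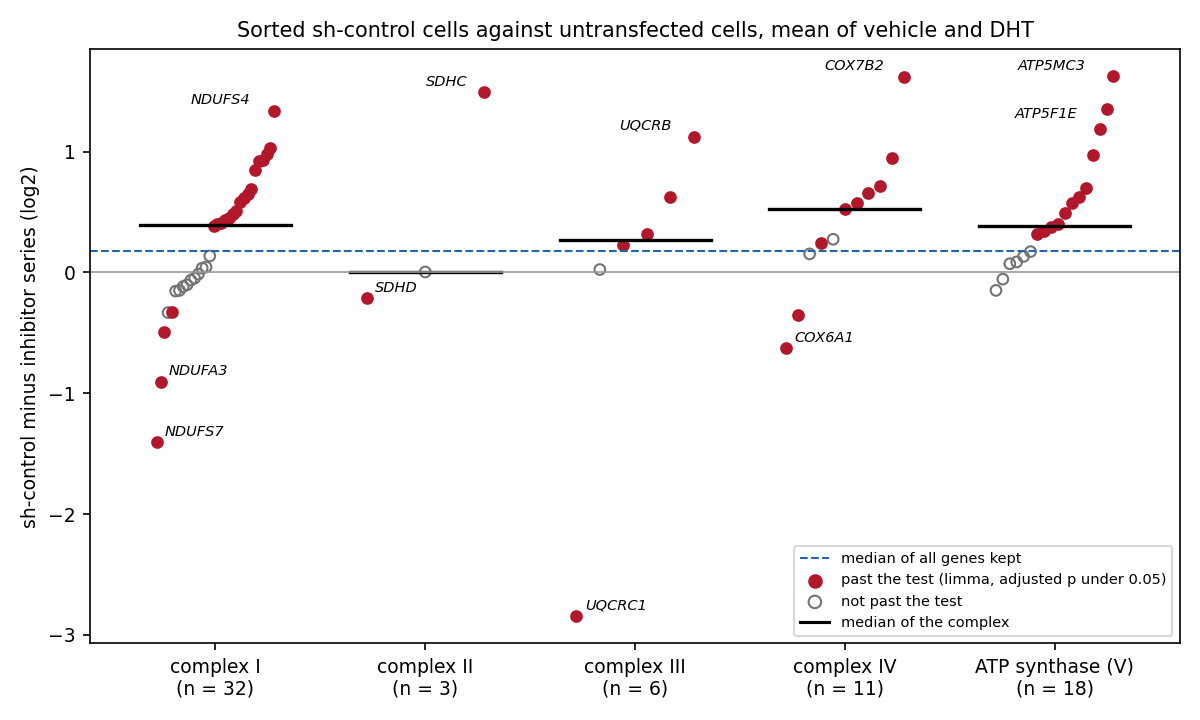
Log2 difference between sorted sh-control cells and untransfected cells, over vehicle and DHT, for the 70 members by complex (x axis); filled points passed limma's test, bars are the medians of the complexes, and the dashed line is the median of all genes kept (0.18). UQCRC1 (-2.84) and NDUFS7 (-1.40) lie far below the other members, and ATP5MC3 and COX7B2 (both 1.62) lie at the top.

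Of 24 members past the test here with several bright probe sets, 18 had a single sign across them; ATP5F1C, NDUFA11, NDUFB4, NDUFV3, SDHC and UQCRC2 did not. A further quantile normalization gave 37 higher and 16 lower (52.9% and 22.9%), beside 32.3% and 36.7% of all genes. Centring on abundant genes gave 39 and 14 (55.7% and 20.0%), beside 38.2% and 29.7%. The median of all genes was -0.08 and 0.09 in these settings. In the other lists, 57 of 75 mitochondrial ribosomal protein genes were higher and 10 lower, 27 and 8 of 50 assembly factors, 12 and 2 of 21 regulators, 6 and 4 of 15 citrate cycle genes, 2 and 2 of 8 other subunits and 35 and 8 of 57 cytosolic ribosomal protein genes. The largest differences were those of RPLP2 (7.88 ± 0.13), RPL27A (4.45 ± 0.09), MTERF4 (3.06 ± 0.10), PPARGC1B (2.67 ± 0.30), MRPL41 (-2.27 ± 0.08), MRPS12 (-1.92 ± 0.10), COX18 (1.73 ± 0.10), TACO1 (1.52 ± 0.12), SUCLG2 (1.74 ± 0.09), CS (1.27 ± 0.06) and COX7A2L (0.69 ± 0.09). CYC1, a further subunit of complex III, was lower by 1.14 ± 0.12.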

How the data were processed

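Gene expression of LNCaP cells was measured on 9 Affymetrix arrays, 1 per group. The authors deposited log2 expression values per probe set; the submitters' processing notes name RMA (no version is given in the sources used here), and its quantile step removes a shift shared by most genes. Of 54675 probe sets, 41097 carried 1 gene symbol, 1801 several and 11777 none; 41043 matched RefSeq (GRCh38.p14), which changed 0 symbols. Each gene took its probe set with the highest mean, and 11865 of 19775 genes had a mean at or above the 40th percentile (5.92).

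Tests used R 4.3.3 and limma 3.58.1, two-sided, with Benjamini-Hochberg adjustment at 0.05 over all genes kept. The model had a block for each of 3 backgrounds, the DHT effect and a separate coefficient for each lone array, leaving 2 residual and 4.62 prior degrees of freedom, and was tested on simulated data. Named genes were the members past the test, or the 6 largest each way where over 12 passed, the extremes of each complex, the tissue-restricted forms, and 2 genes of each other list. Members and lists were chosen with earlier results of these data known. The number of arrays limits the precision, and brightness was not compared between genes. Probe sets of many members can share sequence with paralogs or pseudogenes, so those values are uncertain as to the copy measured. The steady state against DHT comparison and the test of DHT response between series were added after seeing the data. Promoter letters were counted in the RefSeq windows.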

Additional observations from a re-analysis of the deposited data

How the results depend on the processing

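Limits: each group has 1 array, the spread comes from 3 DHT pairs, and the filter, the trend and the scaling decide how many members pass. Steady state against vehicle kept its direction, with 8 members past the test with no intensity trend (11.4% of members and 11.4% of all genes higher), 56 centred on control genes (median 0.54), and 10 to 19 when a pair was left out. Against DHT, 7 members passed with no intensity trend (10.0% and 9.13% higher). Centred on control genes, 55 passed (78.6%, beside 33.0% of all genes in either direction). Without the sh-control pair 17 passed (24.3%, beside 17.5%), and without the sh-TOP2B pair 9 (12.9%, beside 16.2%). The shares of members and of all genes that rose were 22.9% and 8.99% without the sh-control pair. They were 11.4% and 8% without the sh-TOP2B pair. Leaving out a pair gave 0 to 21 members for DHT against vehicle (21 without the inhibitor pair), and the fit without the background block (no replicate block) called 0. For etoposide, 0 members passed with no intensity trend, no filter, a further quantile normalization, centring on abundant genes or either pair left out, and the median was -0.0323 after normalization, -0.0304 on abundant genes and -0.0374 against the fitted DHT level. For merbarone, 1 passed with no trend, 5 with no filter, 28 centred on control genes (median 0.28, and 0.10 on abundant genes), 17 against the fitted DHT level and 2 to 5 with a pair left out. Between the compounds, 4 passed with no trend (5.71%, beside 25.0% of all genes) and 10 with no filter (13.5%, beside 16.5%). With the median over probe sets 7 passed (10.0%, beside 24.2%), and without shared probe sets 11 (16.4%, beside 28.9%). On control genes 38 passed (54.3%, beside 39.6%), after quantile normalization 12 (17.1%, beside 30.5%), and 5 to 31 with a pair left out. The DHT response between series had 1 with the median over probe sets (1.43%, beside 2.44% of all genes). The change of the DHT response had no fit with a pair left out, since no residual degrees of freedom remained.

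Members changed sign as follows, mostly with the choice of probe set, and otherwise with centring on control genes. What lies behind the differences between probe sets was not tested. In steady state, ATP5MC2 was -0.0587 against vehicle and NDUFB7 -0.19 against DHT. With merbarone, on control genes, ATP5F1A was 0.0495, ATP5MK 0.0481 and NDUFB4 0.0717. Between the compounds, ATP5IF1 was 0.99, ATP5MG 0.26, NDUFV3 1.49 and 0.47, UQCRB 0.18, NDUFA2 -0.20 and NDUFA7 0.0472, and on control genes COX7A2 was -0.0084, NDUFB4 -0.0949 and UQCR10 -0.0167. Between the series, ATP5F1C was -1.55, NDUFA11 -0.35, NDUFB4 0.0546 and 0.44, NDUFS7 0.0856, NDUFV3 -0.24, SDHC -0.16 and UQCRC2 -0.0065. The SDHC value is a change of the median level on each array. The median difference of its 7 bright probe sets was 1.07. The NDUFA2 and NDUFS7 values rest on probe sets with means below the filter level of 5.92.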
